A study of Saccharomyces cerevisiae and Saccharomyces paradoxus with 16 samples.

Results

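Cryptic unstable transcripts (CUTs) are short, capped and polyadenylated RNA polymerase II transcripts that do not code for protein. They are terminated through the RNA binding proteins Nrd1 and Nab3, polyadenylated by the TRAMP complex, and removed within the nucleus by the exosome, of which Rrp6p is a catalytic component. In *rrp6*Δ cells CUTs accumulate, and in wild type (WT) cells they are found at low levels or not at all. Described here are the CUTs chosen by their average WT coverage, that is the rows of the 4 deposited strain annotations in which this value is exactly 0. There were 332 of these WT-zero CUTs among 9377 CUTs, or 3.54% of all CUTs. Coverage is the authors' read depth per nucleotide. They had scaled it to the mapped reads, adjusted it for the bias of the first base and for mappability, and averaged it along the CUT and between both replicates, so each CUT has a single value per genotype and no replicate error.

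The annotations come from 16 strand-specific RNA-seq libraries, 2 of *rrp6*Δ and 2 of WT cells in each of the *Saccharomyces cerevisiae* strains S288c, Σ1278b (Sigma1278b in the labels) and JAY291 and the *Saccharomyces paradoxus* strain N17. All cultures were grown in YPD, a rich glucose medium, at 30 °C, starting at an OD of 0.1 and harvested in mid-log phase between 0.6 and 0.69. In S288c, the *rrp6*Δ strain is rrp6::KanMX his3Δ1 leu2Δ0 ura3Δ0 met15Δ0 and the WT strain is his3Δ1 lys2Δ0 leu2Δ0 ura3Δ0. In Σ1278b, the *rrp6*Δ strain is rrp6::KanMX his3Δ1 leu2Δ0 ura3Δ0 and the WT strain is ura3-52 leu2::hisG his3::hisG. JAY291 *rrp6*Δ carries rrp6::KanMX and its WT strain no listed marker, while N17 *rrp6*Δ carries rrp6::NatMX and both N17 strains carry HO::lox-Kan-lox. By the strain list of the study, the *rrp6*Δ strains of S288c and Σ1278b are MATa and their WT strains MATα, whereas both JAY291 strains are MATa and both N17 strains MATα. Selection of poly(A) RNA took 1 round in replicate 1 and 2 rounds in replicate 2 of the *S.cerevisiae* strains, and 2 rounds in both N17 replicates.

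The share of CUTs listed at 0 in WT was 5.22% in N17 (139 of 2661 CUTs, 95% Wilson interval 4.44 to 6.14%), 3.84% in JAY291 (87 of 2268, 3.12 to 4.71%), 3.11% in S288c (64 of 2055, 2.45 to 3.96%) and 1.76% in Σ1278b (42 of 2393, 1.30 to 2.36%). The interval of N17 did not overlap those of S288c and Σ1278b, and the intervals of JAY291 and S288c overlapped. These intervals hold counting error only, since CUTs of a strain are not replicates, and they are no test between strains. The strains differ in genotype background and mating type, and N17 also in species and in poly(A) selection, so these cannot be told apart as sources of the order. Library depth was not analysed here. The smallest recurring sum of WT coverage over a CUT, described below, ran in the same order as the share. It was 2.38 in Σ1278b, 2.77 in S288c, 3.93 in JAY291 and 13.2 in N17, and its part in the order was not tested. WT coverage chose the members, and the WT values are given as a description only. Coverage just above the threshold began at 0.00202 in S288c (CUT1012, then CUT103 at 0.00210 and CUT81 at 0.00413). It began at 0.00384 in Σ1278b (CUT2175, then CUT2319 at 0.00386 and CUT2574 at 0.00424), at 0.00534 in JAY291 (CUT4977, then CUT4498 at 0.00579 and CUT4664 at 0.00806) and at 0.00299 in N17 (CUT6814, then CUT6862 at 0.00742 and CUT7063 at 0.0127). WT coverage above 0 and up to 0.05 was found for a further 67 CUTs in N17, 72 in JAY291, 36 in S288c and 89 in Σ1278b, so in Σ1278b the CUTs just above 0 outnumbered those at 0.

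The sequences of some WT-zero CUTs with high *rrp6*Δ coverage in S288c are given as examples and do not stand for all members. Below are the 4 with the highest *rrp6*Δ coverage among those of at most 300 nt that lie on chromosomes with an unambiguous label, whole. Each is written 5′ to 3′ on the transcribed strand of assembly R64, with matches to GTAA or GTAG (the short motifs bound by Nrd1) and TCTT (bound by Nab3) in capitals, on that strand only. They lie at chrXIV:559639-559897 (CUT883), chrXIV:602507-602626 (CUT825), chrV:20987-21238 (CUT746) and chrXIV:614198-614420 (CUT659), all on the minus strand.
CUT883: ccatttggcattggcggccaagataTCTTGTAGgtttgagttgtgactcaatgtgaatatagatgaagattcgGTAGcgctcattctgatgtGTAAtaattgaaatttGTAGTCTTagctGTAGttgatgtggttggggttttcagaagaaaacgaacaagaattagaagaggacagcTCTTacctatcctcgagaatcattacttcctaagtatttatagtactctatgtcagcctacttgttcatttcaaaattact
CUT825: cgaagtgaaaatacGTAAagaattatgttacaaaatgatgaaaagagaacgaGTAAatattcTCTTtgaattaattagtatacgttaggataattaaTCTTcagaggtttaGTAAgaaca
CUT746: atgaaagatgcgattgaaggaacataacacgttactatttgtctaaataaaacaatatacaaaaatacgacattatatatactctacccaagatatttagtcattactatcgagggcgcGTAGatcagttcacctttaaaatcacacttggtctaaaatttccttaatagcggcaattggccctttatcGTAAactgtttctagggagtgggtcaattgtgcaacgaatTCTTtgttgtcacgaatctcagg
CUT659: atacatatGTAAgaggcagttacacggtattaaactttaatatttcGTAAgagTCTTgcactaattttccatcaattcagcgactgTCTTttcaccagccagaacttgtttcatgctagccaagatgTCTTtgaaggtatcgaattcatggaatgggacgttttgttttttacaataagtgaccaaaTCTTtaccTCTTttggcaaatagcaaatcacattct

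CUT883 holds 5 matches to GTAA or GTAG and 3 to TCTT in 259 nt. Of all windows of that length on both strands of the 14 chromosomes used, 82.2% hold a GTAA or GTAG match, 5.01% hold 5 or more, 80.9% hold a TCTT match and 33.0% hold 3 or more. CUT825 holds 3 and 2 matches in 120 nt, and 5.99% of windows of its length hold 3 or more GTAA or GTAG while 24.2% hold 2 or more TCTT. CUT659 holds 2 GTAA or GTAG and 5 TCTT matches in 223 nt, and 6.84% of such windows hold 5 or more TCTT. CUT746, with 2 and 1, holds counts that more than 50% of windows of its length reach. A match is a string of letters and was not tested as a binding site.

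WT-zero CUTs were shorter than the other CUTs of their strain in all 4 strains. In S288c they ran from 111 to 655 nt with a median of 214.5 nt (95% order-statistic interval 190 to 249 nt), against a median of 408 nt and a maximum of 4396 nt among the CUTs with WT coverage above 0. The median was 197.5 nt (175 to 227 nt) against 446 nt in Σ1278b, 195 nt (181 to 212 nt) against 414 nt in JAY291 and 274 nt (247 to 306 nt) against 501 nt in N17. The longest WT-zero CUTs had 882 nt in N17, 748 nt in JAY291 and 672 nt in Σ1278b, while other CUTs reached 6547, 4057 and 4060 nt in these strains. Those under 200 nt made up 21.6% of WT-zero CUTs and 6.15% of other CUTs in N17, 54.0% and 13.6% in JAY291, 52.4% and 11.6% in Σ1278b, and 45.3% and 14.5% in S288c. The ranges overlap, since short CUTs with WT coverage are found in every strain. The differences of the medians, WT-zero minus other, were −193.5, −248.5, −219 and −227 nt in S288c, Σ1278b, JAY291 and N17. Over the strains the exact two-sided sign-flip test gave p = 0.13, the smallest that 4 strains allow, and 0.25 after Benjamini-Hochberg adjustment over the 4 comparisons made, so the threshold of 0.05 cannot be reached. A mean WT coverage of exactly 0 needs every nucleotide of the CUT to be without WT signal, so the rule itself favours short CUTs. The direction is thus not independent of the rule, and the p-value is a description only.

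The accumulated signal of WT-zero CUTs in *rrp6*Δ was low within each annotation. Because *rrp6*Δ and WT coverage belong to the same contrast, the values are a description without a test. The authors called CUTs by fold change, after adding 1 to all coverage values. A CUT at 0 in WT thus reaches a given fold change at a lower *rrp6*Δ coverage than a CUT with WT signal. The part of this in the values below was not tested. Median *rrp6*Δ coverage was 2.78 in WT-zero and 6.97 in other CUTs of N17, 3.62 and 7.79 in JAY291, 2.76 and 6.26 in Σ1278b, and 2.84 and 5.72 in S288c. Ranked among all CUTs of its strain, the median WT-zero CUT stood at the 14.5th percentile of *rrp6*Δ coverage in S288c, the 10.4th in Σ1278b, the 12.7th in JAY291 and the 14.9th in N17. A WT-zero CUT above the median of its strain was found once in S288c, once in Σ1278b, 8 times in JAY291 and 14 times in N17. Coverage above 10 was reached by 7 WT-zero CUTs in N17, 7 in JAY291, 1 in S288c and 0 in Σ1278b, and by 911, 836, 476 and 668 other CUTs in these strains. The deposited annotations had been filtered for low *rrp6*Δ coverage by the authors, so WT-zero regions removed by that filter and not brought back by the study are not counted here.

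**Figure D1:**
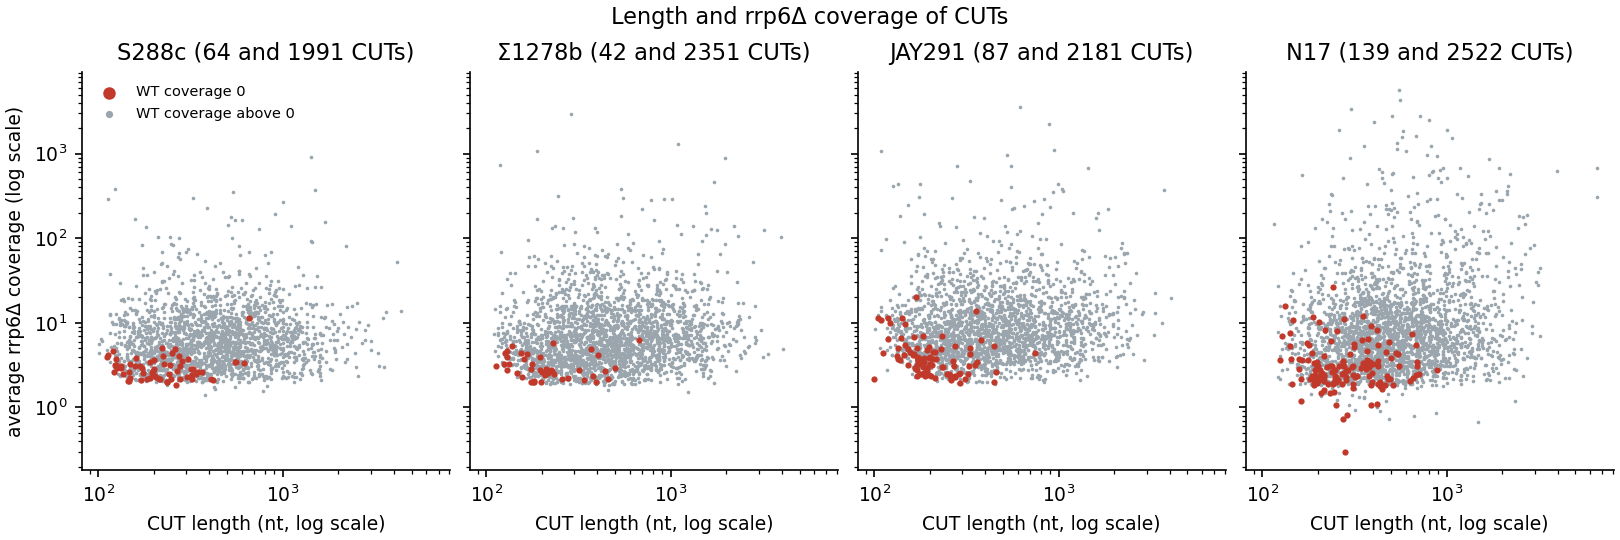
Length (x axis, nt, log scale) and average *rrp6*Δ coverage (y axis, log scale) of every CUT in the 4 strains, with WT-zero CUTs as large dark points and CUTs with WT coverage above 0 as small grey points. The WT-zero CUTs fill the short, low-coverage corner of each panel, with medians of 195 to 274 nt and of 2.76 to 3.62 in coverage, and few lie apart from it.

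Listing at 0 fell off with both length and *rrp6*Δ coverage when all CUTs of a strain were divided into 4 classes of equal size. In the shortest class, 13.2% of CUTs were at 0 in N17, 10.5% in JAY291, 7.74% in S288c and 5.18% in Σ1278b. In the longest class, 0 of 512 CUTs were at 0 in S288c, 0 of 598 in Σ1278b, 1 of 566 in JAY291 and 1 of 664 in N17. By *rrp6*Δ coverage, the lowest class held 51 of the 64 WT-zero CUTs in S288c, 31 of 42 in Σ1278b, 63 of 87 in JAY291 and 100 of 139 in N17. Among CUTs in both the shortest and the lowest-coverage class, 19.5% were at 0 in S288c (32 of 164), 12.0% in Σ1278b (23 of 191), 24.6% in JAY291 (41 of 167) and 25.8% in N17 (64 of 248). Within the length class under 200 nt the median *rrp6*Δ coverage of WT-zero CUTs was still below that of the others, at 2.92 against 5.56 in S288c, 3.15 against 5.35 in Σ1278b, 3.92 against 7.61 in JAY291 and 3.41 against 5.30 in N17.

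**Figure D2:**
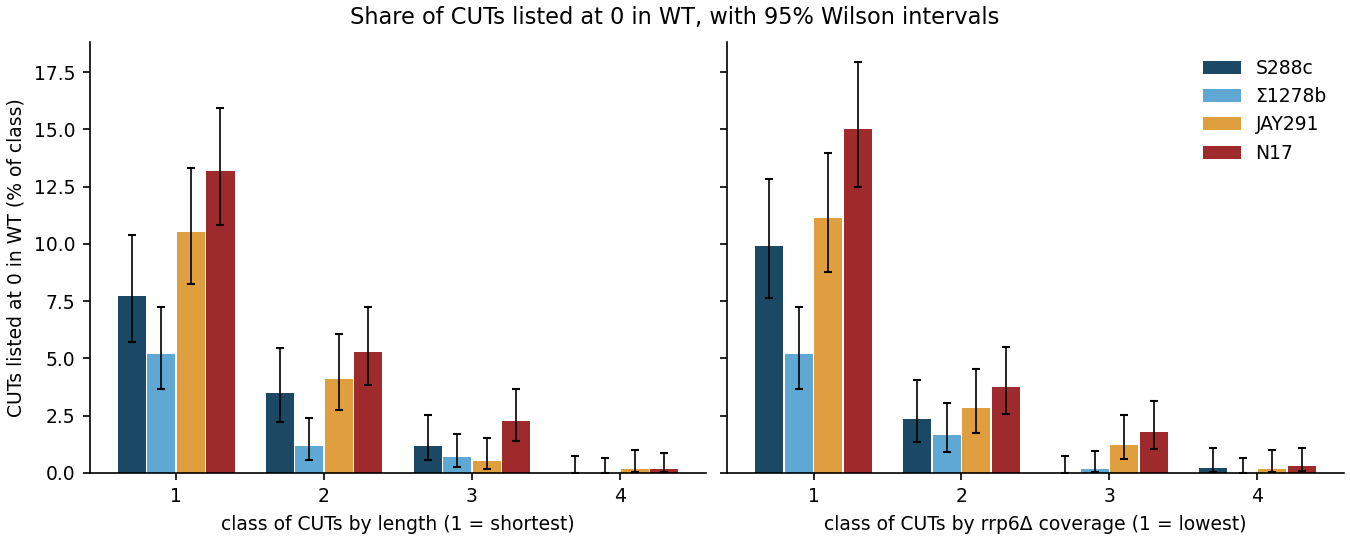
Share of CUTs listed at 0 in WT (y axis, percent of the CUTs in a class) by class of CUT length (left, 1 is the shortest) and of *rrp6*Δ coverage (right, 1 is the lowest), each class being 25% of a strain's CUTs, with 1 bar per strain and 95% Wilson intervals. The share is highest in class 1 in every strain, up to 13.2% by length and 15.0% by coverage in N17, and at or below 0.301% in class 4.

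How small a WT signal the annotations can hold was read from the coverage summed over a CUT (coverage times length). The smallest sum shared, to 3 decimals, by at least 4 CUTs with WT coverage was 2.77 in S288c (5 CUTs), 2.38 in Σ1278b (19 CUTs), 3.93 in JAY291 (10 CUTs) and 13.2 in N17 (32 CUTs). The lowest single sums above 0 were 0.298, 0.561, 1.23 and 1.29. For WT-zero CUTs, the *rrp6*Δ coverage summed in the same way had medians of 551, 586, 704 and 780 in S288c, Σ1278b, JAY291 and N17, with lowest values of 298, 346, 219 and 83.4. Depths of single libraries are not part of the annotations, so a limit in reads for a value of 0 was not computed, and a value of 0 here says only that none was listed.

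WT-zero CUTs lay on both strands in similar numbers. The plus strand held 31 of 64 in S288c (48.4%, 95% Wilson interval 36.6 to 60.4%), 17 of 42 in Σ1278b (40.5%, 27.0 to 55.5%), 41 of 87 in JAY291 (47.1%, 37.0 to 57.5%) and 69 of 139 in N17 (49.6%, 41.5 to 57.8%). Among other CUTs the plus strand held 48.1% in N17, 49.8% in JAY291, 52.4% in Σ1278b and 48.7% in S288c. Each interval of WT-zero CUTs includes the share of the other CUTs, and the exact sign-flip test over the strains gave p = 0.375 (adjusted p = 0.375), with the share lower in 3 of 4 strains. With CUTs of WT coverage up to 0.05 counted as members the mean difference turned, while without the lowest 25% by *rrp6*Δ coverage it was −11.7 percentage points, with the share lower in 3 of 4 strains.

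Fewer WT-zero CUTs than other CUTs overlapped a CUT on the opposite strand. This was the case for 4 of 64 (6.25%) against 10.1% of other CUTs in S288c, 3 of 42 (7.14%) against 13.0% in Σ1278b, 5 of 87 (5.75%) against 11.5% in JAY291 and 18 of 139 (12.9%) against 22.2% in N17. The share was lower in 4 of 4 strains, with an exact sign-flip p of 0.13 (adjusted p = 0.25), although in S288c, Σ1278b and JAY291 the interval of the WT-zero share includes the other share. Overlap also moves with length. Under 200 nt the shares were 6.90% against 7.27% in S288c, 9.09% against 8.79% in Σ1278b, 2.13% against 7.77% in JAY291 and 13.3% against 9.68% in N17, so in Σ1278b (2 of 22) and N17 (4 of 30) the order turned. From 200 to below 400 nt they were 3.45% against 10.6% in S288c and 6.67% against 13.4% in Σ1278b. In JAY291 and N17 they were 8.33% against 9.43% and 13.9% against 17.2%, so this class was lower in 4 of 4 strains. From 400 nt upwards, with 4 to 30 WT-zero CUTs per strain, the share was higher in S288c and JAY291 and lower in Σ1278b and N17. The part of length in the difference was not tested. The distance to the nearest other CUT on either strand had a median of 1822 bp for WT-zero against 1384 bp for other CUTs in S288c, 1280.5 against 1068 bp in Σ1278b, 1103 against 1289 bp in JAY291 and 1059 against 720 bp in N17, with no common direction (exact sign-flip p = 0.25, adjusted p = 0.333), and the mean difference turned without the lowest 25% by *rrp6*Δ coverage. Among CUTs of at least 200 nt the distance was larger for WT-zero CUTs in 4 of 4 strains, by 479.5 bp on average (exact sign-flip p = 0.13).

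WT-zero CUTs were spread over the chromosomes. In S288c, chromosome III held 5 WT-zero CUTs of 55 CUTs (9.09%, 3.95 to 19.6%), beside 3.11% over the whole annotation, and chromosomes VI and VIII held 0 of 31 and 0 of 97. Chromosome III held 2 of 57 CUTs at 0 in Σ1278b, 4 of 63 in JAY291 and 5 of 60 in N17. The largest share in JAY291 was on contigs of chromosome VI, with 5 of 42 CUTs, where S288c had none. Since CUTs of chromosome XIII appear under the label chrXII in S288c, Σ1278b and N17, all genes and sequences below refer to the 14 other chromosomes of S288c, which hold 52 of its 64 WT-zero CUTs and 1672 other CUTs.

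CUT2029, on the minus strand of chromosome III, stands apart from all other WT-zero CUTs of S288c. With 655 nt it is the longest, and with an *rrp6*Δ coverage of 11.3 against a WT coverage of 0 it lies at the 80.9th percentile of the annotation, while the next, CUT902 under the label chrXII, has 5.04. It lies 37 bp from the recombination enhancer (RE) of the R64 annotation, without overlap, and shares 301 bp with the replication origin ARS304. The RE directs the choice of donor cassette in mating type switching, is active in MATa cells and silenced in MATα cells, and is known to give non-coding RNAs in MATa cells. CUT2029 lies between KAR4, the gene of a transcription factor of the mating response, and RDT1. The plus-strand CUT1275 spans CUT2029 whole, with 7.32 in *rrp6*Δ and 0.147 in WT. On the minus strand, CUT2028 had 7.21 in *rrp6*Δ and 0.0401 in WT, and CUT2030 had 7.60 in *rrp6*Δ and 0.474 in WT. In WT, all 3 neighbours were below the median of 0.758 of other S288c CUTs. CUT2028, CUT2029 and CUT2030 follow outside the rising coverage order in which most CUTs are numbered.

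The strongest and longest WT-zero CUT of Σ1278b also lies on the left arm of chromosome III. CUT4425 (minus strand, 31288 to 31959 in Σ1278b coordinates, 672 nt) had 6.34 in *rrp6*Δ and 0 in WT. CUT4425 follows outside the rising coverage order. Its neighbours at higher coordinates were CUT4426 on the same strand (32402 to 33210), with 12.2 in *rrp6*Δ and 0.0305 in WT, and CUT3422 on the plus strand (32235 to 33175), with 7.19 in *rrp6*Δ and 0.0140 in WT. At lower coordinates lay CUT3624 on the plus strand (30158 to 30656), with 8.93 in *rrp6*Δ. It had 0.893 in WT, above the median of 0.664 of other Σ1278b CUTs. No gene was assigned to these CUTs, since only the S288c genome was used. N17 had the WT-zero CUT7135 on the same chromosome (minus strand, 33000 to 33305 in its own coordinates), with 3.03 in *rrp6*Δ. Its conserved partners, CUT4427 in Σ1278b and CUT5281 in JAY291, had 0.333 and 0.392 in WT. In S288c and Σ1278b, mating type and *RRP6* genotype differ together between the compared strains, so at these loci they cannot be told apart.

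The other 4 WT-zero CUTs of S288c chromosome III include one within the silent mating cassette HMR. CUT224 (minus strand, 293888 to 294252, 365 nt, 2.65 in *rrp6*Δ and 0 in WT) runs antisense through 74.9% of HMRA1 (YCR097W, 293835 to 294321), the silent copy of the gene for the a1 repressor. None of its 36-mers occurs more than once in R64, whose MAT locus carries the α genes. In a MATa strain the same sequence is also present at MAT, so the 2 loci cannot be told apart in the *rrp6*Δ reads. CUT386 (plus strand, 197402 to 197646, 3.17 in *rrp6*Δ) starts 217 bp from PHO87, a phosphate transporter gene, and reaches into the end of BUD5, which acts in bud site selection. It contains the replication origin ARS314 whole (197460 to 197598). CUT441 (plus strand, 178657 to 179276, 620 nt, 3.32 in *rrp6*Δ) shares 142 bp with the snoRNA gene SNR189 on the opposite strand and is the second longest of S288c. CUT79 (152272 to 152461, 2.24 in *rrp6*Δ) lies 376 bp from MAK32 and overlaps no coding sequence. These loci were singled out after their values were seen.

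Relative to genes, S288c WT-zero CUTs were antisense or intergenic, and none was sense. Of 52, 35 overlapped a coding sequence on the opposite strand (67.3%, 95% Wilson interval 53.8 to 78.5%), as did 60.7% of other CUTs. A sense overlap was found for 0 of 52 (95% Wilson interval 0 to 6.88%, and a limit of 5.77% at 3 counts) and for 133 of 1672 other CUTs (7.95%). No coding sequence on either strand was met by 17 (32.7%) and by 32.7% of other CUTs. Of the 30 members of at least 200 nt, 16.7% met none, and the share among other CUTs of that length was not computed. A divergent start within 300 bp of the start of a gene was found for 12 (23.1%, 13.7 to 36.1%) and for 32.2% of other CUTs. Among 107 other CUTs in both the shortest and the lowest-coverage class of the S288c annotation, a comparison added after the data were seen, 0.935% were sense, 59.8% antisense and 21.5% divergent, so for all 3 classes their shares lie within the intervals of the WT-zero CUTs. Antisense WT-zero CUTs began within 100 bp of the end of the coding sequence in 18 of 35 cases (51.4%), against 47.9% of other antisense CUTs, and 13 (37.1%) began further inside it, against 23.3%. Of the short, low-coverage antisense CUTs, 34.4% began near the end and 54.7% further inside. They covered a median of 14.6% of the coding sequence, against 35.2% for other antisense CUTs and 10.6% for the short, low-coverage ones.

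**Figure D3:**
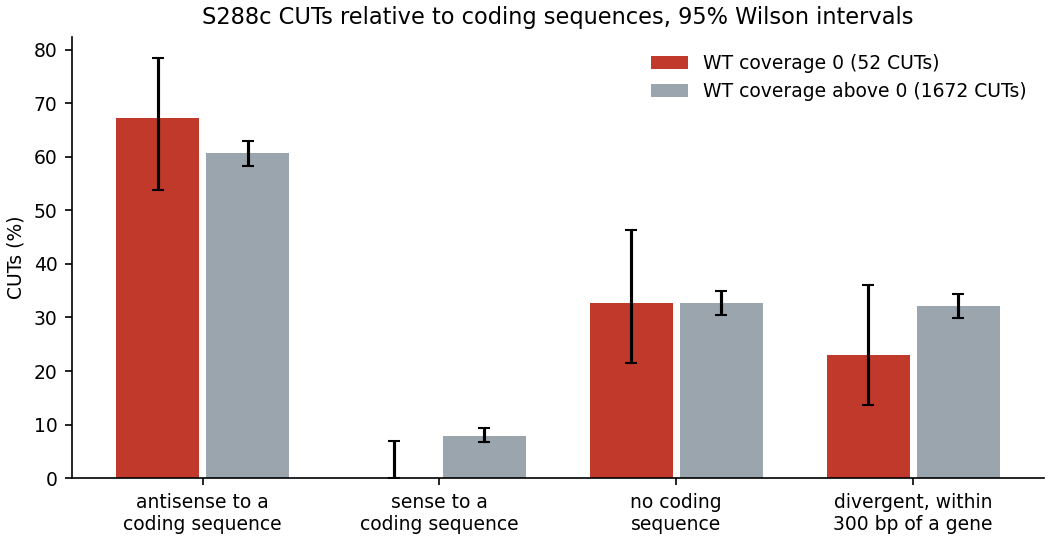
Share of S288c CUTs (y axis, percent) that are antisense or sense to a coding sequence, overlap none, or start divergently within 300 bp of a gene, for the 52 WT-zero CUTs (left bars) and the 1672 other CUTs (right bars) with 95% Wilson intervals. The bars for no coding sequence stand at 32.7% in both groups, and the sense bar of the WT-zero CUTs is at 0.

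With CUTs under the label chrXII left out, the WT-zero CUTs of S288c with the highest *rrp6*Δ coverage after CUT2029 were CUT883, CUT825, CUT746 and CUT659. CUT883 (4.95 in *rrp6*Δ) begins inside NCE103 (YNL036W, carbonic anhydrase), runs antisense over the first 12.6% of its coding sequence and ends upstream of it. CUT825 (4.68) starts 281 bp from PUB1, which encodes a poly(A) RNA binding protein, and is transcribed away from it. CUT746 (4.39), which lies 20987 bp from the left end of chromosome V, starts 141 bp past the end of DSF1 (YEL070W), a putative mannitol dehydrogenase gene, and is antisense to it. It is the only one of the 52 with repeated sequence, as 48.4% of its 36-mers occur more than once in R64, so reads from a copy are uncertain there. CUT659 (4.07) starts 60 bp past the end of PYP1 (YNL010W, a polyol phosphatase) and covers 22.5% of it, and CUT247 (2.73) lies 243 bp beyond the same gene on the other strand, 21 bp from IDP3, the peroxisomal isocitrate dehydrogenase gene.

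The genes covered most by an antisense WT-zero CUT, beside HMRA1, have varied functions. CUT56 (2.17 in *rrp6*Δ) covers 87.7% of SRB6, a Mediator subunit, CUT51 (2.15) covers 61.3% of MLC1, the essential myosin light chain, and CUT300 (2.88) covers 39.6% of PNO1, which acts in small subunit rRNA processing. CUT167 (2.48) covers 39.6% of MET14, the sulfate assimilation kinase, and CUT55 (2.17) covers 39.3% of MSO1, which acts in secretion. CUT27 (2.09) covers 35.6% of the kinase gene ENV7 and CUT363 (3.10) 35.1% of BUD32, a kinase of the KEOPS complex. Shares of 30.1% for DDC1 (CUT477, 3.44), a checkpoint clamp subunit, 29.8% for the ribosomal protein gene RPL27B (CUT561, 3.70), 29.7% for SEC62 (CUT162, 2.47), which acts in translocation into the endoplasmic reticulum, and 27.9% for the splicing factor gene SLU7 (CUT145, 2.43) follow. CUT2037 (1.82) covers 22.9% of ERG20, the farnesyl pyrophosphate synthase gene, and CUT489 (3.49), at 559 nt the third longest, 14.6% of TRK1, a potassium transporter gene.

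Several antisense WT-zero CUTs begin just inside the end of the gene they cover and within 300 bp of the start of a neighbour. CUT477 starts 10 bp inside the end of DDC1 and 298 bp from RSA1, an assembly factor gene. CUT300 lies antisense in PNO1 and divergent from ELG1, a clamp unloader subunit, CUT145 antisense in SLU7 and divergent from RRP1, CUT363 antisense in BUD32 and divergent from APL6, and CUT401 antisense in NIF3 and divergent from EDC1, a decapping activator. Without an overlapped gene, CUT574 (3.74) starts 256 bp from ERG26, an ergosterol synthesis gene, and CUT352 (3.07) is divergent from DPL1, a sphingolipid lyase gene.

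The gene lists chosen for a known link to CUTs, termination or the genotypes, which do not include HMRA1, met no WT-zero CUT. None overlapped or began within 300 bp of the 14 compared genes of mating type or genotype (genes specific to a or α cells, auxotrophic markers, of which LYS2 differs between the S288c strains, and *RRP6*), of which 5 had any CUT. None was found at 7 genes of Nrd1, Nab3 and TRAMP (4 with any CUT), at 12 nuclear exosome genes (0 with any CUT), at 5 nucleotide and amino acid synthesis genes (3 with any CUT) or at 14 meiosis and sporulation genes (6 with any CUT). These counts are to be read beside the 3.11% of S288c CUTs at 0, since few CUTs lie at these genes.

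In sequence composition, S288c WT-zero CUTs had intervals that include the median of the other CUTs, except for GC content upstream. GC content had a median of 37.4% (95% order-statistic interval 35.7 to 38.6%) against 38.3%, and the 200 bp upstream had 33.5% (32.5 to 35.5%) against 36%, so the upstream interval lies below the other median. The density of GTAA and GTAG was 0.906 per 100 nt (0.690 to 1.20) against 0.881, and that of TCTT 1.28 (0.985 to 1.58) against 1.01. No GTAA or GTAG was held by 7 of 52 (13.5%) against 5.20% of other CUTs, and no TCTT by 6 (11.5%) against 6.64%, while in the short, low-coverage CUTs these shares were 17.8% and 15.0%. Repeated 36-mers were found in 1 of 52 (1.92%, 0.340 to 10.1%) against 5.20%. Within 30 kb of a chromosome end lay 5 of 52 (9.62%), CUT183, CUT224, CUT434, CUT746 and CUT2029, against 5.32% of other CUTs.

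Strong WT-zero CUTs were also found in the other strains. In JAY291, CUT6316 (168 nt, chromosome VI) had 20.3 in *rrp6*Δ, CUT6094 (358 nt, IX) had 13.7, CUT5955 (142 nt, XVI) had 11.4, CUT5949 (105 nt, II) had 11.4 and CUT5947 (119 nt, X) had 11.3. The 3 longest there were CUT4942 (748 nt, 4.37), CUT4543 (458 nt, 2.65) and CUT5178 (448 nt, 5.38), none of which is among the 5 strongest. In N17, CUT8916 (242 nt, XV) had 26.2, the highest of all 332, and overlaps a CUT on the other strand. CUT8709 (132 nt, II) had 16.0, CUT8534 (351 nt, V) had 11.9, CUT8505 (188 nt, XVI) had 11.6 and CUT8462 (277 nt, XIV) had 11.0. The longest in N17 were CUT7045 (882 nt, 2.74), CUT6961 (704 nt, 2.49) and CUT7299 (693 nt, 3.49). In Σ1278b, after CUT4425 came CUT3154 (229 nt, 5.79) and CUT3053 (138 nt, 5.34), both under the label chrXII, CUT2970 (370 nt, 4.87) and CUT2916 (130 nt, 4.67), and the longest after CUT4425 were CUT2347 (500 nt, 2.90) and CUT2133 (454 nt, 2.18).

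Whether a WT-zero CUT was also low in WT in other strains was asked with the CUTs that the study lists as conserved in all 4 strains, paired by their place in the list. Coordinates identical to a deposited annotation were found for Σ1278b, JAY291 and N17. Those of Σ1278b stand in the list named S288c, all 855 of which match the Σ1278b annotation, while the list named Sigma1278b matches it for 453 of 855, so every conserved value of Σ1278b here rests on the list named S288c, and conservation of S288c members was not analysed here. Conserved CUTs made up 6 of 42 WT-zero CUTs in Σ1278b (14.3%, 6.72 to 27.8%, against 36.1% of other CUTs), 21 of 87 in JAY291 (24.1%, 16.4 to 34.1%, against 38.2%) and 43 of 139 in N17 (30.9%, 23.9 to 39.0%, against 32.2%). Conservation also moves with length. Under 200 nt the shares were 9.09% against 9.52% in Σ1278b, 19.1% against 15.2% in JAY291 and 6 of 30 CUTs against 12.3% in N17. From 200 to below 400 nt they were 20% against 27.5% in Σ1278b, 27.8% against 30.8% in JAY291 and 34.2% against 25.8% in N17. From 400 nt upwards they were 1 of 5 CUTs against 46.8%, 2 of 4 against 49.2% and 33.3% against 37.0% in these strains. The part of length in the conserved share was not tested. The study brought back filtered CUTs of a strain where the other 3 had a call, and 14 of the 43 conserved WT-zero CUTs of N17 follow outside the rising coverage order, against 0 of 6 in Σ1278b and 0 of 21 in JAY291.

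Partners of conserved WT-zero CUTs had a lower median WT coverage in the other strains than partners of other conserved CUTs, though single partners were high. The value of 0 of a member was read from the libraries of its own strain. The libraries of the partner strains also took part, since a conserved CUT had to be called in every strain from *rrp6*Δ and WT reads. For the 21 members of JAY291, WT coverage of the Σ1278b partner had a median of 0.0765 (range 0 to 0.568), against 0.695 for the partners of the other 834, and 21 of 21 lay below that value. In N17 their partners had a median of 0.174 against 0.532 and reached 1.59, with 18 of 21 below 0.532. Without the lowest 25% of CUTs by *rrp6*Δ coverage, 5 of these 21 remained and the order of the N17 medians turned, to 0.791 against 0.578. For the 43 members of N17 the medians were 0.265 against 0.706 in Σ1278b (35 of 43 below) and 0.392 against 0.679 in JAY291 (30 of 43 below). The highest WT coverage of a partner of these members was 4.26 in Σ1278b and 15.4 in JAY291. For the 6 members of Σ1278b they were 0.116 against 0.662 in JAY291 (6 of 6 below) and 0.420 against 0.522 in N17 (5 of 6 below). Partners were themselves at 0 in 3 of 21 cases in Σ1278b and 4 of 21 in N17 for JAY291 members, 2 of 43 and 4 of 43 in Σ1278b and JAY291 for N17 members, and 3 of 6 and 2 of 6 in JAY291 and N17 for Σ1278b members. Among partners of CUTs above 0 the shares at 0 were 0.360% in Σ1278b and 4.68% in N17 (JAY291 list), 0.493% in Σ1278b and 2.09% in JAY291 (N17 list), and 2.12% in JAY291 and 4.83% in N17 (Σ1278b list). The partners also had lower *rrp6*Δ coverage, for example 3.72 against 8.16 in Σ1278b for JAY291 members, and in 5 of 6 pairings they were shorter, for example 315 against 576.5 nt for the same pairing. Their part in the lower WT coverage was not tested, and since each strain enters several pairings these 6 comparisons are not independent.

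**Figure D4:**
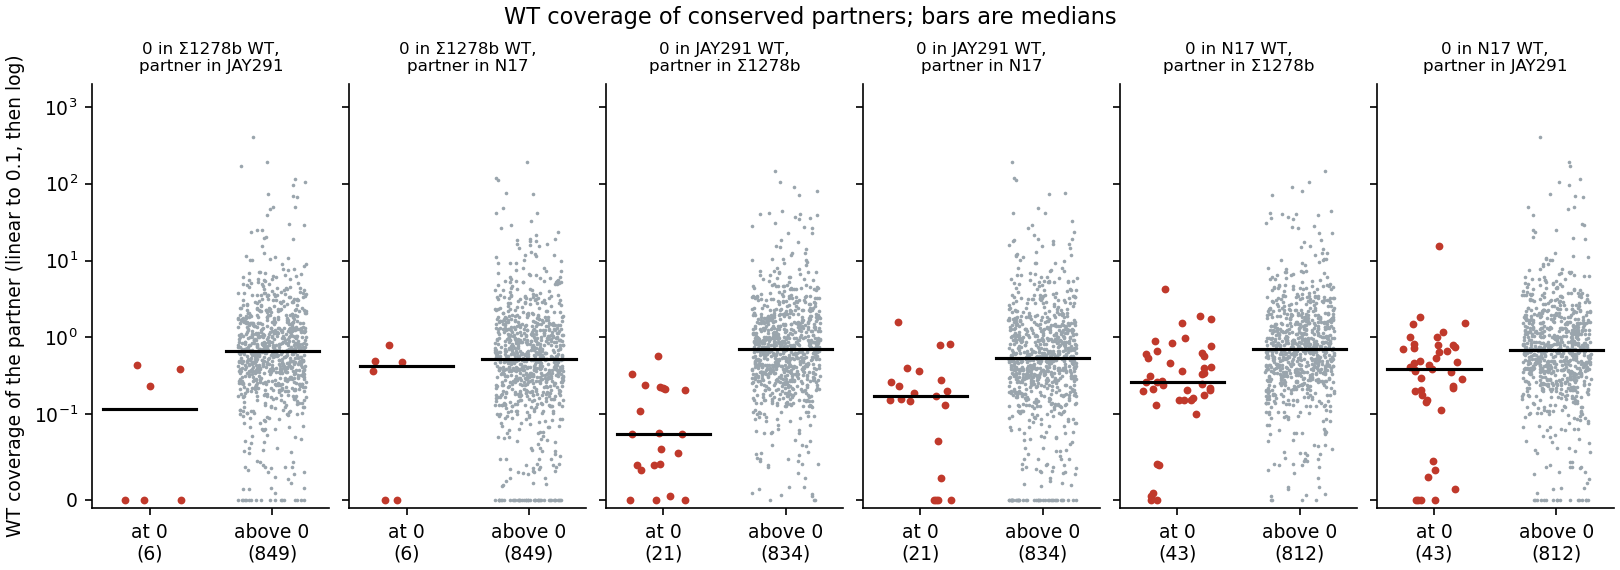
WT coverage (y axis, linear up to 0.1 and logarithmic above) of the conserved partner in another strain, for CUTs at 0 in the first-named strain (left points) and for those above 0 (right points), with numbers of CUTs below and medians as bars. The bar of the WT-zero CUTs is the lower one in all 6 pairings, from 0.0765 against 0.695 (JAY291 members in Σ1278b) to 0.420 against 0.522 (Σ1278b members in N17).

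Of the 855 conserved sets, 793 had WT coverage in Σ1278b, JAY291 and N17, 55 were at 0 in 1 of the 3 strains, 6 in 2 and 1 in all 3. The last, on chromosome X, was CUT2111 in Σ1278b (337 nt, 2.11 in *rrp6*Δ), CUT4519 in JAY291 (2.50) and CUT9343 in N17 (282 nt, 0.296), the lowest *rrp6*Δ coverage of any WT-zero CUT. CUT9343 follows outside the coverage order of N17, as do CUT9327, CUT9351 and CUT9354 of the sets at 0 in 2 strains.

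In the 6 sets at 0 in 2 strains, the third strain had WT coverage between 0.0400 and 0.791. CUT2970 (Σ1278b, 4.87 in *rrp6*Δ) and CUT9327 (N17, 1.70) on chromosome XIV had the JAY291 partner CUT4878, with 4.19 in *rrp6*Δ and 0.231 in WT. CUT4995 (JAY291, 4.58) and CUT6900 (N17, 2.32) on chromosome IX had the Σ1278b partner CUT2832, with 4.40 in *rrp6*Δ and 0.214 in WT. CUT2463 (Σ1278b, 3.24) and CUT4518 (JAY291, 2.49) on chromosome VII had 125 and 249 nt, while their N17 partner CUT7201 had 1606 nt, 3.17 in *rrp6*Δ and 0.364 in WT. CUT4543 (JAY291, 2.65) and CUT9351 (N17, 1.65) on chromosome I were matched by CUT2408 in Σ1278b, with 3.09 in *rrp6*Δ and 0.0400 in WT. On chromosome II, CUT4791 (JAY291, 3.85) and CUT9354 (N17, 1.48) were matched by CUT2467 in Σ1278b, with 3.24 in *rrp6*Δ and 0.0415 in WT. Also on chromosome II, CUT2842 (Σ1278b, 154 nt) had 4.43 and CUT5949 (JAY291, 105 nt) 11.4 in *rrp6*Δ, while the N17 partner CUT8839 had 20.3 in *rrp6*Δ and 0.791 in WT. Among these 6 sets it was the one with the highest *rrp6*Δ coverage in all 3 strains but Σ1278b, where CUT2970 was higher.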

How the data were processed

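CUTs were called by the authors with an HMM from *rrp6*Δ and WT RNA-seq reads mapped uniquely to the genome of each strain (Bowtie 0.12.7 and bedtools 2.16.2 in the submitters' processing notes). Neighbouring calls within 450 bp had been merged and calls under 100 nt or with low *rrp6*Δ coverage removed. The deposited coverage signal is the mean over nucleotides and over the 2 replicates. The deposited fold ratio column, an average of *rrp6*Δ over WT, holds the authors' own comparison and was not used. Single replicates are not in the annotations, so the spread between libraries could not be given, and the depth of each library was not analysed here. *RRP6* transcript levels were not analysed here, and the sequence of CUT2029 is not reported here. The members, gene lists and tests were chosen with earlier results of these data known.

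Length was stop minus start, and printed starts are 1-based. Contigs of JAY291 and conserved CUTs were matched through the lists of the study. Genes and sequences came from RefSeq assembly R64, with 6002 protein-coding genes. Shares have 95% Wilson intervals and medians order-statistic intervals, both for counting error only. CUTs of a strain are not replicates, so tests were exact two-sided sign-flip permutation tests over the 4 strains. The CUTs named are, by a rule, the 5 strongest and 3 longest of each strain, the 3 just above 0, the conserved ones at 0 in at least 2 strains, and the S288c genes met, with up to 20 covered most. CUT659 and other loci outside it were chosen after their values were seen. Gene relations and intervals were tested on simulated data. Alternatives left out CUTs labelled chrXII, CUTs under 200 nt, CUTs outside the coverage order, the lowest 25% by *rrp6*Δ coverage or 1 strain, or used WT coverage of at most 0.05, other overlap rules and 25-mers or 50-mers. Of the genotype genes, MFALPHA1 and MFALPHA2 were not matched and MET17 lies on chromosome XII, as do SEN1 and IMD3 of the other lists, so these were not compared. Software was matplotlib 3.10.9, SciPy 1.17.1, pandas 2.3.3, NumPy 2.4.6 and Python 3.11.15.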

Additional observations from a re-analysis of the deposited data

How the results depend on the processing

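The shorter length (mean difference −222 nt over the strains) stayed between −260 and −177 nt, and the lower opposite-strand overlap (−6.17 percentage points) between −7.14 and −5.16, in every alternative and with each strain left out, with an exact p of 0.13, or 0.25 over 3 strains. Since the rule that chose the members itself favours short CUTs, the p-value for length is a description only. The plus strand difference (−3.31 points) turned to 1.09 points with WT coverage of 0.05 or less and was −11.7 points without the lowest 25% by *rrp6*Δ coverage. The distance difference (201 bp) turned to −55.8 bp in that setting and was 479.5 bp from 200 nt upwards. Also without the lowest 25%, 5 JAY291 members remained with N17 partners, with a median of 0.791 against 0.578. The conserved share of N17 WT-zero CUTs was 23.6% with CUTs in coverage order only. This setting left out 14 of 43 conserved WT-zero CUTs and 61 of 812 other conserved CUTs of N17. The share of other CUTs in this setting was not computed. With a minimum length of 200 nt, 83.3% of the 30 S288c members were antisense and 16.7% met no coding sequence. Shares of other CUTs of that length were not computed. Within 600 bp, 50% of the S288c members of any length were divergent, against 59.4% of other CUTs. The causes were not tested. The other 109 values of the main results, −11.7 points and 479.5 bp included, kept their direction or, where no test was run, stayed within their interval or spread. For tested values only the direction counted, so a change in size such as that to −11.7 points or 479.5 bp is not excluded. Their side of the test threshold of 0.05 could not change, since the smallest possible p is 0.13, or 0.25 over 3 strains. No paired analysis was possible because the authors averaged the replicates, and leaving out single replicates was not possible for the same reason. What read depth allows at a CUT listed at 0 was not tested.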
